A study of Mus musculus with 15 samples.

Results

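The Six-Eya-Dach network was followed here through 8 of its genes, Six2, Six4, Six5, Eya1, Eya2, Eya3, Eya4 and Dach1, in the embryonic mouse first branchial arch, from array measurements of its RNA. The members were the probe sets of an Affymetrix array that the platform's annotation gave to these 8 symbols, 21 of 45101 probe sets, whatever their values. After a filter on dim probe sets 19 of them were tested, among 31643 probe sets and 13934 genes.

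Six-family proteins are homeodomain transcription factors that bind DNA and also hold a further domain through which they bind Eya proteins. Eya proteins do not bind DNA themselves: they act as transcriptional coactivators in the complex with their DNA-binding partner, and they also carry a protein phosphatase domain. Dach proteins, relatives of the corepressors Ski and SnoN, join or oppose these complexes. The network was first worked out in the Drosophila eye, where sine oculis, eyes absent and dachshund are the counterparts, and in mouse embryos its genes act in cranial placodes, the ear, the kidney, muscle precursors and the mesenchyme of the face.

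The first arch is the swelling that forms the jaws. Its maxillary branch forms most of the upper jaw and its mandibular branch the lower jaw, and the homeobox genes Dlx5 and Dlx6 are known to set the mandibular identity. The 15 arrays, all labelled E10.5, fell into 5 groups of 3. A mutant of Dlx5 and Dlx6 gave mandibular tissue (Dlx5/6 mutant), an animal labelled only as KO gave maxillary tissue, and wild type (WT) gave mandibular tissue in 1 group and maxillary tissue in 2. The labels wrote those last as WT_MXA2 and WT_MXA, called set 2 and set 1 here. The labels did not name the gene lost in the KO arrays, did not say what set WT_MXA2 apart from WT_MXA, and described neither the alleles nor the strain. Their shared description, written as a plan, spoke of dlx2, dlx1/2 and Dlx5/6 mutants and of pooling about 10 arches for an experiment. No label said whether the arrays of a group were separate embryos, litters or pools, and a p value here can reflect only how far these arrays varied.

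Values below are signal, the deposited linear intensity of a probe set on an array. Changes are log2 differences between group means, computed after adding 32 to each signal and quantile normalization, which understates the changes of dim probe sets. A change is given with its SE and its adjusted p from limma, adjusted over all 31643 tested probe sets, and was called at an adjusted p under 0.05. A gene was counted by its brightest tested probe set, and levels of different probe sets were not compared with each other. In such bulk samples, fewer cells of a type and less RNA per cell cannot be told apart.

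Array medians of signal lay between 26.6 and 33.5, and arrays of a group correlated at 0.984 to 0.990. The labels were checked with the Dlx genes: Dlx5 had a signal of 10.95 ± 2.97 in the Dlx5/6 mutant mandibular arrays and 727 ± 40.6 in WT mandibular arrays (SD, n = 3 each), and Dlx6 had 3.32 ± 1.52 and 249.6 ± 51.3. In the KO maxillary arrays Dlx2 had 3.37 ± 0.180, against 422 ± 20.1 in WT maxillary set 2, and Dlx1 had 209 ± 11.7, against 712 ± 30.8. The bacterial spike-in control dap read 2564 to 2821 on the KO and set 2 arrays (6 in all) but 287 to 339.7 on the mandibular and set 1 arrays (9 in all). Arrays of 1 level are called an array set here, and the labels did not explain the levels. The KO arrays were therefore compared with set 2 and the mandibular arrays with set 1. The 6 markers of crest-derived mesenchyme (Twist1, Prrx1, Prrx2, Pdgfra, Msx1 and Msx2) had summed signals between 6641 and 8471 over the 15 arrays, and none was at 0 in any group.

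The sequences before the start sites of the members that changed in the Dlx5/6 mutant are shown first, since Dlx proteins bind homeodomain core letters such as TAATT. RefSeq's promoter table (build GRCm38.p6) held 6 of the 8 members, and Eya1 and Eya2 were not matched. The 250 bases before the start of Six2, chr17:85688255-85688504 on the minus strand, and of Dach1, chr14:98169766-98170015 on the minus strand, follow 5′ to 3′ with TAATT in capitals.
Six2: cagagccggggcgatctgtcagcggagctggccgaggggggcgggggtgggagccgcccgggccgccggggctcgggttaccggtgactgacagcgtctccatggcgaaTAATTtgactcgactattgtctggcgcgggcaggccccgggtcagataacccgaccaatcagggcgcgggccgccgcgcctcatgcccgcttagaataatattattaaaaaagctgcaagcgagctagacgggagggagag
Dach1: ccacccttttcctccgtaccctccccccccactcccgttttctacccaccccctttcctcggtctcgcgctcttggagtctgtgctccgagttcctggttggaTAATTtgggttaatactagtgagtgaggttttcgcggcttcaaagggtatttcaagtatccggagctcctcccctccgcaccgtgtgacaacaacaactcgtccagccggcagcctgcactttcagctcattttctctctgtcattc
Each held TAATT once, 141 bases before the start in Six2 and 147 bases before it in Dach1. Read on both strands (TAATT or AATTA), these letters stood in 25% of 32851 RefSeq windows of 250 bases, so a match is a description of the letters and not a site. The GC content of the window was 64.8% in Six2 and 54.8% in Dach1.

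The letters TCAGGTT, the core of the MEF3 element that Six-family proteins bind in muscle genes, were also searched on both strands (TCAGGTT or AACCTGA) and overlap TAATT nowhere. They stood in 3.49% of the same windows and, among the members, before 1 of the 2 listed starts of Six4. That stretch is shown because it holds the letters of an element bound by the family to which Six4 itself belongs: chr12:73113326-73113352, minus strand, 97 bases before the start, with the letters in capitals.
Six4: gcctgggggaAACCTGAtcggccagat
The windows of Six5, Eya3, Eya4 and the other Six4 start held neither set of letters.

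**Figure D1:**
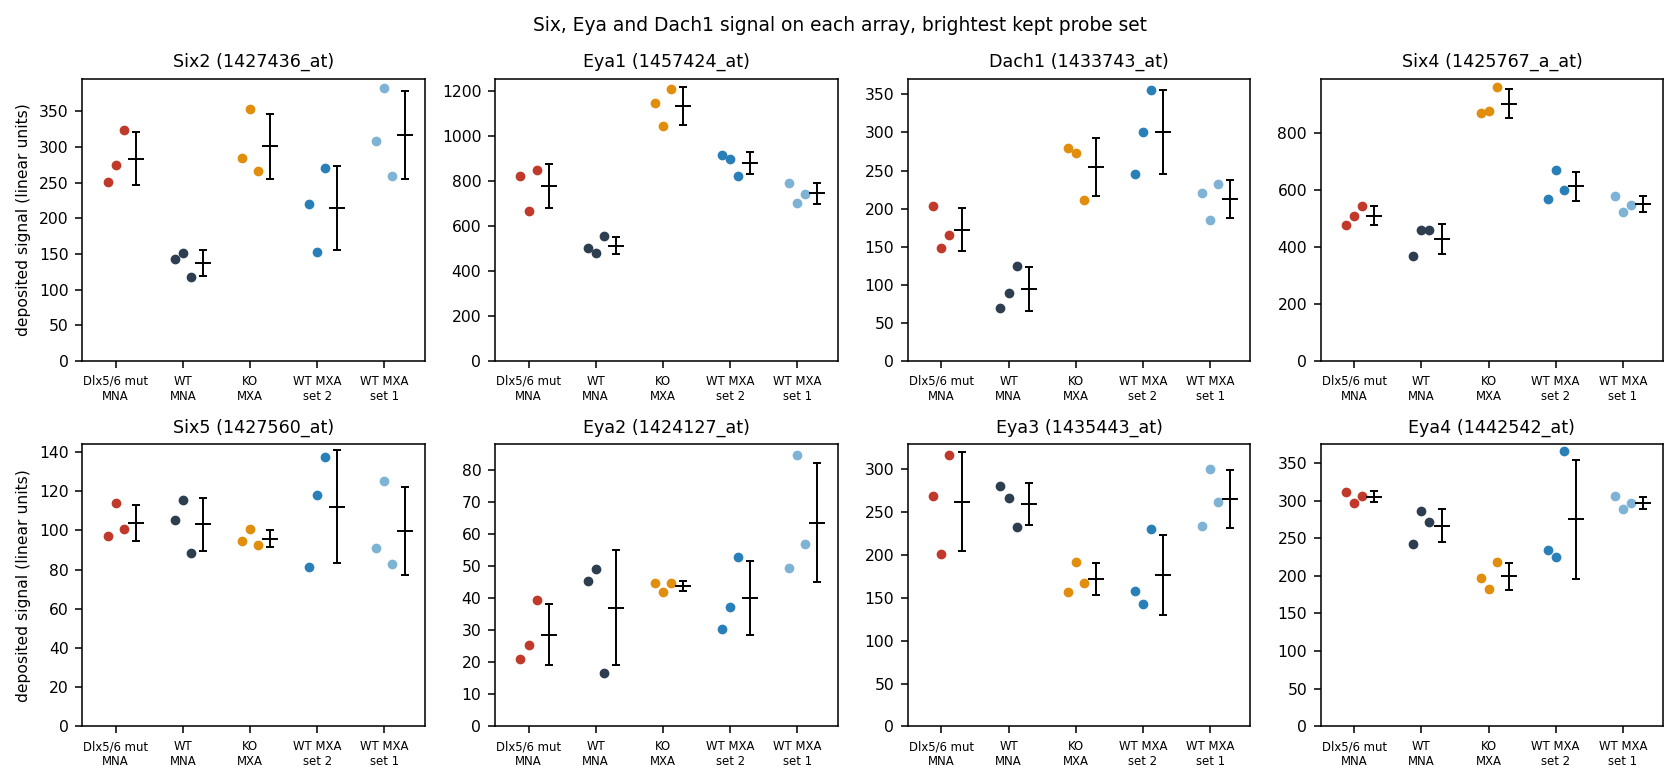
Deposited signal (linear units) of the brightest tested probe set of each of the 8 genes on each of the 15 arrays; each point is 1 array, and the bar beside the points is the group mean with its SD (n = 3). Dlx5/6 mut MNA is the Dlx5/6 mutant mandibular branch, WT MNA the WT mandibular branch, KO MXA the KO maxillary branch and WT MXA the WT maxillary branch. The WT mandibular arrays are the lowest of all 15 for Six2, Eya1, Dach1 and Six4, and the KO arrays the highest for Eya1 and Six4.

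Loss of Dlx5/6 in the mandibular branch went with higher Six2, Eya1 and Dach1. All 3 rose by about 1.5 to 1.9 times, and the other 5 members did not pass the test. The 3 genes stand for the network's parts: Six2 is a DNA-binding member known for keeping nephron progenitors undifferentiated, Eya1 is a coactivator whose loss in humans causes branchio-oto-renal syndrome, and Dach1 is a corepressor. Of the 8 genes 3 were called, all higher, where 3.16% of all 13934 genes were called and 1.58% were called higher. The median change over the 8 genes was 0.22, against -0.01 over all genes tested.

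Six2 had signals of 251, 275 and 324 on the Dlx5/6 mutant mandibular arrays and of 143, 152 and 117 on the WT mandibular arrays. Every mutant array lay above every WT array. The rise was 0.91 ± 0.15 on the log2 scale, or 1.88-fold, with an adjusted p of 0.000713.

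Eya1 (probe set 1457424_at) had 825, 668 and 848 on the mutant arrays, against 501, 481 and 554 on the WT arrays. The groups did not overlap here either, and the lowest mutant array stood above the highest WT array by more than the whole range of the WT arrays. Eya1 rose by 0.58 ± 0.08 on the log2 scale, 1.5-fold, with an adjusted p of 0.000146. Its 2 dimmer probe sets gave changes of 0.57 (1443117_at, adjusted p 0.0293) and 0.52 (1421727_at, adjusted p 0.0839), so 2 of 3 passed the test and the 3 sizes lay close together.

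Dach1 (1433743_at) had 203, 148.0 and 166 on the mutant arrays and 69.2, 89.5 and 125 on the WT arrays, again without overlap. The WT arrays spread widely for a mean of 94.6 ± 28.3 (SD, n = 3). Dach1 rose by 0.71 ± 0.15 on the log2 scale, 1.64-fold, with an adjusted p of 0.00665, and its probe set 1420695_at by 0.57 with an adjusted p of 0.0114. The third Dach1 probe set, 1420694_a_at, read 38.1 to 48.1 on the mutant arrays and 14.7 to 19.1 on the WT arrays, with a change of 0.57 and an adjusted p of 0.0837. Without mutant replicate 1 the adjusted p of 1433743_at was 0.053.

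Six4, a transcription factor known from muscle and placode development, had 477, 508 and 544 on the mutant arrays and 368, 459 and 459 on the WT arrays. The groups did not overlap, but the change of 0.25 ± 0.09 missed the threshold (adjusted p 0.169, 95% interval 0.07 to 0.43). Its other 3 probe sets had changes between -0.09 and 0.41 and were not called. At 1456862_at, with the change of -0.09, the mutant arrays read 358 to 402, all below the 404 to 426.5 of the WT arrays. Eya4, a coactivator whose mutation causes hearing loss in humans, had 297 to 311 on the mutant arrays and 242 to 286 on the WT arrays, a change of 0.18 with an interval of -0.07 to 0.43. Six5, which lies beside the myotonic dystrophy kinase gene, and Eya3 were close to 0, at 0.03 (interval -0.26 to 0.33) and 0.01 (-0.29 to 0.30). Eya2 was at -0.17 with an interval of -0.57 to 0.22, so these data could not show whether it changed by less than that.

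Markers of other cell types differed as well. Of 5 macrophage genes 1 was called higher in the mutant, and their summed signal was 394 to 409 on mutant arrays against 238 to 268 on WT mandibular arrays. Of 7 genes of the branchiomeric muscle program 1 was called lower, with sums of 214 to 267 against 349.8 to 359. Sensory neuron genes had sums of 549 to 623 against 519 to 587, with 1 of 10 called, higher. Of the 6 crest mesenchyme markers, Twist1 (0.45) and Prrx2 (0.50) were called higher and Msx1 (-0.57) lower, and the summed signal was 7693 to 8229 on mutant arrays against 6641 to 7260 on WT mandibular arrays. Of 7 epithelium genes 1 was called, Pitx1 at -1.85, with sums of 2374 to 2388 against 2635 to 2818. None of the glia, endothelium and erythroid genes was called by limma, where 0 of 4, 1 of 5 and 0 of 4 had an unadjusted p under 0.05. No marker was at 0, and their part in the rise of Six2, Eya1 and Dach1 was not tested.

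**Figure D2:**
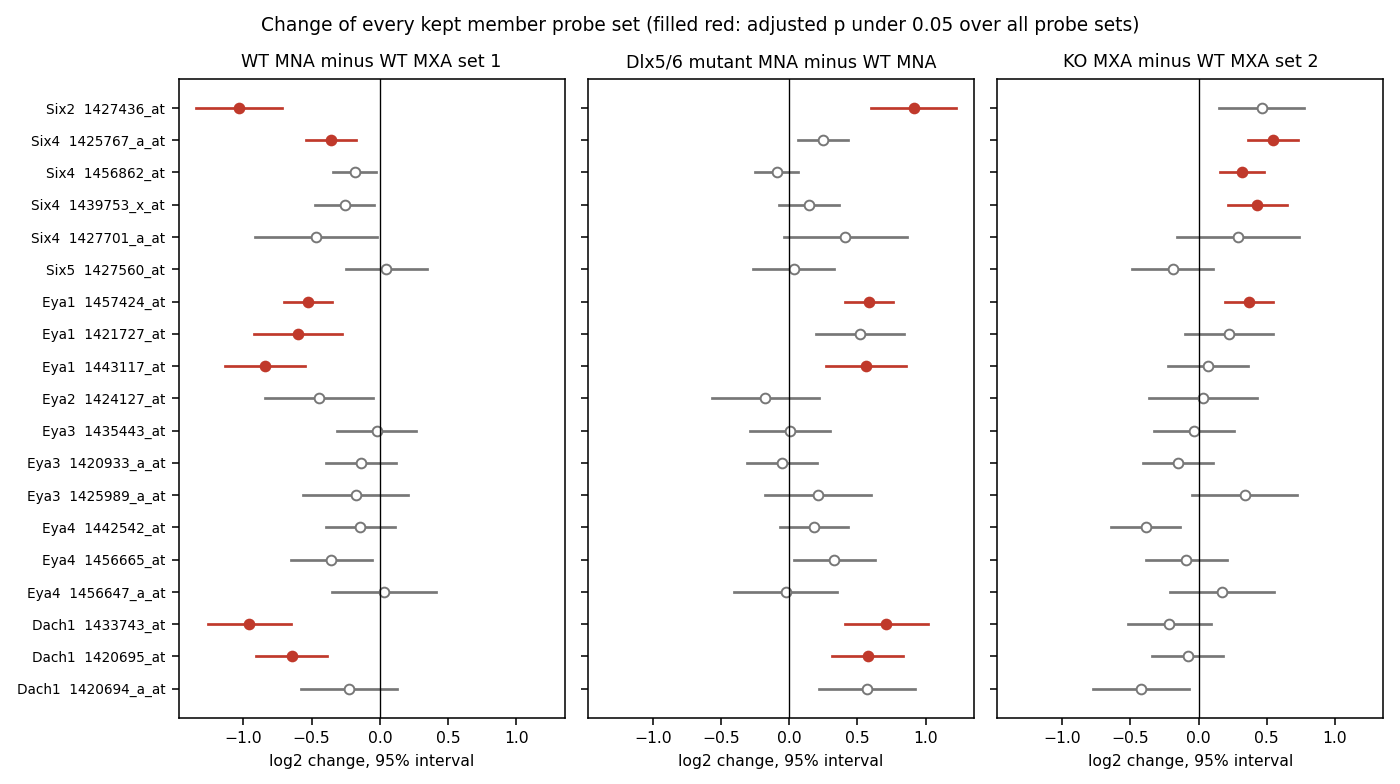
Log2 change (x axis) of each of the 19 tested probe sets with its 95% interval, in the WT mandibular against the WT maxillary set 1 branch, the Dlx5/6 mutant against the WT mandibular branch, and the KO against the WT maxillary set 2 branch; filled red points passed an adjusted p of 0.05. The called points of Six2, Eya1 and Dach1 lie left of 0 in the first panel and right of 0 in the second, which share the WT mandibular arrays, and those of Six4 and Eya1 lie right of 0 in the third.

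In the wild type, the mandibular branch had less Six2, Dach1, Eya1 and Six4 than the maxillary branch. The 4 genes were called lower, none of the 8 was called higher, and 3.56% of all genes were called, 2% of all genes as lower. The median change over the 8 genes was -0.40, against 0.00 over all genes tested. Of the 19 probe sets 7 were called, all lower, and 2.64% of all probe sets were called. Of all called genes 43.8% were higher in the mandibular branch, and 55.7% when only the array medians were set equal; the 4 members kept their direction in both, and Six4 lost its call.

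Six2 averaged 137 ± 18.0 in the WT mandibular branch and 317 ± 61.8 in WT maxillary set 1 (SD, n = 3 each), where the arrays read 308, 382 and 259. It was lower by a log2 change of -1.03 ± 0.15 (adjusted p 0.000105), the largest change of a member in this comparison. Mandibular Dach1 averaged 94.6 ± 28.3 and maxillary Dach1 213 ± 24.9, with set 1 arrays at 221, 185 and 232.5. Its change was -0.96 ± 0.15 (adjusted p 0.000192) at 1433743_at and -0.64 (adjusted p 0.00302) at 1420695_at, while 1420694_a_at gave -0.23 and missed the threshold (adjusted p 0.679).

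All 3 Eya1 probe sets were called lower in the mandibular branch. The brightest averaged 512 ± 37.9 there and 746 ± 45.5 in the maxillary branch, whose arrays read 792, 701 and 744, a change of -0.53 ± 0.08 (adjusted p 0.000356). The other 2 changed by -0.84 (1443117_at, adjusted p 0.000593) and -0.60 (1421727_at, adjusted p 0.0367).

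Six4 was the weakest of the 4. Its brightest probe set averaged 429 ± 52.3 in mandibular arrays and 549.6 ± 28.4 in the maxillary ones, which read 579, 523 and 547. The change of -0.36 ± 0.09 had an adjusted p of 0.0258, and the 3 other Six4 probe sets, at -0.18 to -0.47, were not called. The call was lost without WT mandibular replicate 1, without set 1 replicate 1 and without set 1 replicate 3, and over the alternatives the adjusted p ran from 0.0189 to 0.171. It was also lost without limma's intensity trend, with only the compared groups in the fit and at a threshold of 0.01. Eya2 had a change of -0.45 (adjusted p 0.316), and Six5, Eya3 and Eya4 lay between -0.14 and 0.05.

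Against set 2, of the other spike-in level, the same 4 genes were called lower in the WT mandibular branch, with Dach1 at -1.42, Eya1 at -0.75, Six2 at -0.54 and Six4 at -0.51. That comparison also called Eya3 higher, at 0.48 (1435443_at), and it called 11.5% of all genes. Other Eya3 probe sets gave 0.67 (1425989_a_at, called) and -0.001 (1420933_a_at, not called). Set 2 itself differed from set 1 in Six2 (-0.49, adjusted p 0.0449) and Eya3 (-0.50, adjusted p 0.0285), with 9.1% of all genes called, so part of these differences stood between the wild-type maxillary groups. For Eya3 limma also called 1425989_a_at there (-0.85, adjusted p 0.00511) but not 1420933_a_at (-0.14, adjusted p 0.587).

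Sensory neuron genes differed most among the marker lists. All 10 were called lower in the WT mandibular branch, where their summed signal was 519 to 587, against 2795 to 2823 in WT maxillary set 1, and 3 of 4 glia genes were called lower too. In the Dlx5/6 mutant mandibular arrays the neuron sum was 549 to 623. Crest mesenchyme markers were called higher in 1 and lower in 3 of 6 cases in the mandibular branch, with sums of 6641 to 7260 against 7931 to 8471. Muscle genes had sums of 349.8 to 359 in the WT mandibular branch against 200.6 to 247 in set 1, and Myf5 and Tcf21 were called higher of 7. Macrophage genes had 238 to 268 against 382.5 to 426, with 1 of 5 called, lower, and epithelium genes 2635 to 2818 against 2044 to 2182, with 1 of 7 called, higher. Of 4 erythroid genes 1 was called higher. Their part in the lower level of the 4 members was not tested.

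Set against the WT maxillary branch directly, the Dlx5/6 mutant mandibular branch showed no called member. By limma 0 of 8 genes and 0 of 19 probe sets passed, 1 of 8 genes (Eya2) had an unadjusted p under 0.05, as did 8.91% of all genes, and 0.782% of all genes and 0.594% of all probe sets were called. The changes from set 1 were -0.12 for Six2 (95% interval -0.43 to 0.19), 0.05 for Eya1 (-0.12 to 0.23), -0.24 for Dach1 (-0.55 to 0.06) and -0.11 for Six4 (-0.29 to 0.07). At the dimmer Six4 probe set 1456862_at the change was -0.27 (-0.43 to -0.12) and was not called (adjusted p 0.144). Every mutant array lay below every set 1 array there. Eya2 had 21.1 to 39.4 on the mutant arrays and 49.3 to 84.6 on the set 1 arrays, a change of -0.62 with an adjusted p of 0.22. A missed threshold does not show that the branches were alike, and the intervals leave room for changes of up to those bounds. Of the called genes 33% were higher in the mutant, and 43.7% with only the array medians set equal. This comparison and the 2 before it share arrays with each other, so their values are not independent. Against set 2, 2 members were called by their brightest probe sets, Dach1 lower (-0.70) and Eya3 higher (0.48), where 11.4% of all genes were called. The dimmer Dach1 probe sets gave 0.04 (1420695_at) and 0.22 (1420694_a_at), neither of them called. For Eya3, 1425989_a_at was called at 0.88 and 1420933_a_at, at -0.05, was not. Six4 was called lower at 1456862_at (-0.37, adjusted p 0.00229) but not at its brightest probe set (-0.26, adjusted p 0.0605).

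In the KO maxillary branch, Six4 and Eya1 were higher than in WT maxillary set 2. At their brightest probe sets both had their highest signals of all 5 groups there. The dimmer Eya1 probe set 1443117_at averaged 94.1 in the KO and 126 in set 1. The dim Six4 probe set 1427701_a_at averaged 30.95 and 35.86. The other 6 members were not called, and 3 of them, Six5, Eya2 and Eya3, had changes of -0.19, 0.03 and -0.03. Of all genes 1.26% were called and 0.639% were called higher. The median change was -0.002 over the 8 genes and also over all genes tested. Of all called genes 50.9% were higher in the KO, and 32.5% with only the array medians set equal, where Six4 was called higher and Eya1 was not called.

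Six4 (1425767_a_at) had 870.1, 878 and 961 on the KO arrays, against 569, 669 and 601 on the set 2 arrays. The groups stood well apart, with every KO array above every other array of the 15. Six4 rose by 0.55 ± 0.09 on the log2 scale, 1.46-fold, with an adjusted p of 0.00119, and it kept its call under all 15 alternatives tried. Its probe sets 1439753_x_at and 1456862_at gave 0.43 (adjusted p 0.0487) and 0.32 (adjusted p 0.0454), calls that held under 4 and 5 of 15 alternatives, and the dim 1427701_a_at gave 0.29 (adjusted p 0.715).

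Eya1 (1457424_at) had 1146, 1047 and 1212 on the KO arrays and 917, 900.0 and 823 on the set 2 arrays, without overlap. The rise was 0.37 ± 0.08, 1.29-fold, with an adjusted p of 0.0332. The call was lost in 5 of 6 fits that left out 1 array and stayed only without KO replicate 2, and over the alternatives the adjusted p ran from 0.00981 to 0.173. Its dimmer probe sets gave 0.22 and 0.07, neither of them called.

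Six2 had 285, 353 and 266 on the KO arrays and 219.6, 153 and 270.3 on the set 2 arrays, which overlapped, with a change of 0.46 (adjusted p 0.207, 95% interval 0.15 to 0.78). Dach1 had 279, 273 and 211 on the KO arrays and 246, 301 and 356 on the set 2 arrays, a change of -0.21 (adjusted p 0.682, interval -0.52 to 0.09). These groups overlapped as well. At the dim Dach1 probe set 1420694_a_at they did not, with 15.3 to 20.9 on the KO arrays and 22.9 to 42.6 on the set 2 arrays. Its change was -0.42 (adjusted p 0.36), and that of 1420695_at was -0.08 (adjusted p 0.894). Eya4 had 183 to 218 on the KO arrays, all below the 225 to 366 of the set 2 arrays, with a change of -0.39 (adjusted p 0.171), and the highest set 2 value came from replicate 3 alone. Its dimmer probe sets gave -0.09 (1456665_at) and 0.17 (1456647_a_at), neither of them called, and there the groups overlapped.

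With set 1 as the control, limma called the brightest probe sets of Six4 (0.70, adjusted p 9.82e-06) and Eya1 (0.59, adjusted p 5.09e-05) higher in the KO. Those of Eya3 (-0.54, adjusted p 0.0157) and Eya4 (-0.49, adjusted p 0.00946) were called lower. Of the dimmer Eya4 probe sets 1456665_at was called lower too (-0.51, adjusted p 0.024), while 1456647_a_at was not called (0.28, adjusted p 0.394). This comparison across array sets called 11.6% of all genes. The dimmer Eya1 probe sets were not called, at 0.14 (1421727_at, adjusted p 0.647) and -0.34 (1443117_at, adjusted p 0.139). At 1443117_at every KO array lay below every set 1 array. Eya3 had means of 172 ± 18.3 in the KO, 177 ± 46.8 in set 2 and 265.5 ± 33.9 in set 1 (SD, n = 3 each). Within the array set its change in the KO was -0.03, and at this probe set, 1435443_at, the difference lay between the array sets. The dimmer Eya3 probe sets were not called against set 1, at -0.29 (1420933_a_at) and -0.51 (1425989_a_at).

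Macrophage genes had a summed signal of 590.1 to 634 on the KO arrays against 382 to 426 on the set 2 arrays and 1 of 5 called, and endothelial genes had 859 to 1002 against 657 to 713 with 1 of 5 called. Sensory neuron genes were called lower in 3 of 10 cases, with 959.5 to 969.7 against 1163 to 1175. Muscle genes had 310.2 to 337 against 200.4 to 236, with 1 of 7 called, higher. Of the 6 crest mesenchyme markers Prrx1 (-0.28) and Msx2 (-0.36) were called lower, with sums of 6892 to 7197 on the KO arrays against 7619 to 7987 on the set 2 arrays. Epithelium genes had 2271 to 2367 against 2012 to 2070, with none of 7 called by limma and 3 at an unadjusted p under 0.05. Glia genes had 354.8 to 371.4 against 398.9 to 511.3, with 0 of 4 called by limma and 2 at an unadjusted p under 0.05. Erythroid genes had 27610 to 28590 against 24700 to 27500, with 0 of 4 called and 1 at an unadjusted p under 0.05. None of these markers was at 0, and their part in the rise of Six4 and Eya1 was not tested.

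The effect of Dlx5/6 loss and the effect of the KO were then set against each other in the same model, as the difference of the 2 log2 changes. Dach1 was the only member called, at 0.93 ± 0.21 (adjusted p 0.0228), and 1.44% of all genes were called. Its change was 0.71 in the Dlx5/6 mutant and -0.21 in the KO. The probe set 1420694_a_at gave 0.99 (adjusted p 0.0437) and 1420695_at gave 0.65 (adjusted p 0.0927). The call of 1433743_at was lost in 6 of 12 fits that left out 1 array, without mutant replicate 1, WT mandibular replicates 1 and 2, KO replicate 3, or set 2 replicates 2 and 3. With set 1 in the place of set 2 the difference at 1433743_at was 0.47 and was not called (adjusted p 0.199), while 1420695_at (0.77, adjusted p 0.0084) and 1420694_a_at (0.87, adjusted p 0.0293) were. By their brightest probe sets Six2 (0.94), Six4 (-0.45) and Eya4 (0.68) were called there, in a fit that called 8.06% of all genes. The Eya4 probe set 1456665_at was called there too, at 0.84, and 1456647_a_at, at -0.30, was not.

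For the 2 genes of the KO result no difference between the effects was called. The difference was -0.30 for Six4 (adjusted p 0.397) and 0.21 for Eya1 (adjusted p 0.599), with changes of 0.25 and 0.58 in the Dlx5/6 mutant and of 0.55 and 0.37 in the KO. Six2 had a difference of 0.45 (adjusted p 0.493), and Eya4 one of 0.57 (adjusted p 0.148). The dimmer Eya4 probe sets had differences of 0.42 (1456665_at) and -0.20 (1456647_a_at), neither of them called.

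**Figure D3:**
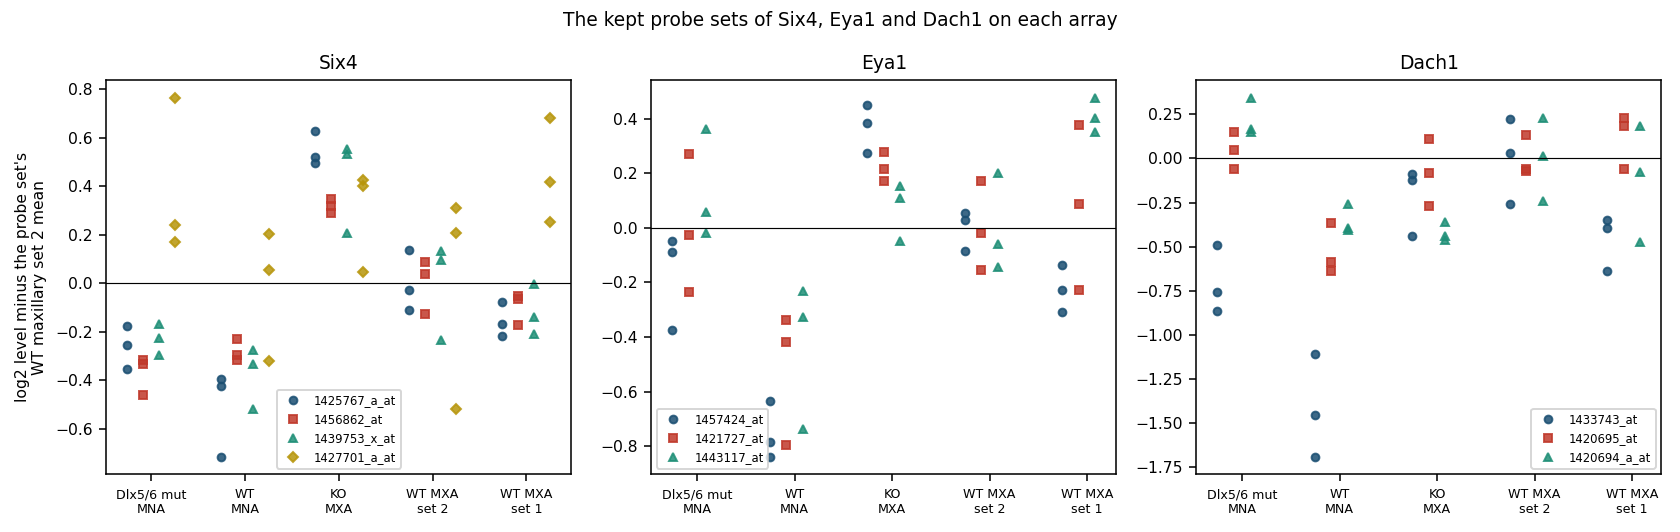
Normalized log2 level of each tested probe set of Six4, Eya1 and Dach1 on each array, minus that probe set's mean in WT maxillary set 2 (y axis); each point is 1 array and each marker shape a probe set. The WT mandibular points of all 3 Eya1 probe sets lie below 0, and all 4 Six4 probe sets lie above 0 on all KO arrays, where those of 1427701_a_at overlap its set 2 points.

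By their brightest probe sets, the order of the groups differed between the 4 called genes, from lowest to highest mean. For Six2 it was WT mandibular, set 2, Dlx5/6 mutant mandibular, KO and set 1, and the ranges of neighbours overlapped from set 2 upwards. For Eya1 it was WT mandibular, set 1, Dlx5/6 mutant, set 2 and KO: the first and the last group stood apart from their neighbours, and neighbours among the 3 between them overlapped. At the dimmer Eya1 probe set 1443117_at set 1 had the highest mean, 126, against 94.1 in the KO. For Dach1 the order was WT mandibular, Dlx5/6 mutant, set 1, KO and set 2, with overlap from the mutant upwards. At the Dach1 probe set 1420695_at the mutant mean, 117, lay above those of the KO, 108, and set 2, 112. For Six4 it was WT mandibular, Dlx5/6 mutant, set 1, set 2 and KO. The KO stood apart from set 2, and WT mandibular from the mutant. At the Six4 probe set 1456862_at the mutant had the lowest mean instead, 384, against 414 in WT mandibular arrays.

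The other 4 genes showed less order. Six5 had group means between 95.8 and 112, with ranges that all overlapped. Eya2 had means between 28.6 in the Dlx5/6 mutant mandibular branch and 63.5 in set 1. At its brightest probe set, 1435443_at, Eya3 had means of 260.0 to 265.5 in the 3 groups of the first array set and of 172 to 177 in the other. At 1420933_a_at the array sets did not part this way: the set 2 mean, 198, lay above that of the Dlx5/6 mutant, 192. At its brightest probe set, 1442542_at, Eya4 had its lowest mean, 199 ± 17.6, in the KO and its highest, 305 ± 7.31, in the Dlx5/6 mutant mandibular branch (SD, n = 3 each). The dim Eya4 probe set 1456647_a_at had the reverse, with 45.5 in the KO as its highest mean and 28.7 in the mutant as its lowest. At 1456665_at set 1 had the highest mean, 83.1, and the KO the lowest, 51.7. The left-out probe sets, Eya3 1458961_at and Eya4 1432461_at, had group means of 4.81 to 10.7 and of 4.24 to 11.7.

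Over the 15 arrays the brightest probe sets of Six4 and Eya1 had a Pearson r of 0.903, Eya1 and Dach1 one of 0.811, and Six4 and Dach1 one of 0.707. Once the group means were taken out these were 0.271, 0.221 and 0.299, so the likeness lay mostly between groups and not between arrays of a group. The genes outside the network with the most similar levels over the 15 arrays were Zfp608 (r = 0.894), Srm (0.893) and Epop (0.878) for Six2, and Shisa2 (0.968), Meis2 (0.953) and Ebf1 (0.951) for Eya1. For Six4 they were Crym (0.951), Capn2 (0.943) and Ctsc (0.938), and for Dach1 Slitrk6 (0.929), Fbxo16 (0.920) and Sh3kbp1 (0.920). These values describe arrays that share groups and array sets, and were picked as the highest among all genes.

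Of further Six- and Dach-family genes, Dach2 and Six3 were tested and Six6 lay below the filter. Dach2, a relative of Dach1, had 184, 129.7 and 169.7 on the KO arrays and 87.8, 85.5 and 79.0 on the set 2 arrays. It was higher by 0.71 ± 0.13 (adjusted p 0.0035), while Dach1 had -0.21 in the same comparison. Its dimmer probe set 1458012_at gave 0.24 and was not called (adjusted p 0.661). In the Dlx5/6 mutant Dach2 had a change of 0.46 (adjusted p 0.0581), and in the WT mandibular branch one of -0.29 (adjusted p 0.353). Six3, which acts in the forebrain and the eye, had means of 28.9 to 36.7 and was called in none of these 3 comparisons.

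Pax proteins, the corepressors of the Tle and Ski families, Mcrs1 and Sobp work with members of the network. Of 14 such partner genes 2 were called lower in the WT mandibular against the maxillary branch (3.56% of all genes were called there), and none by limma in the Dlx5/6 mutant or in the KO, where 7 and 4 of the 14 had an unadjusted p under 0.05, as did 14.4% and 11.6% of all genes. Pax3, which marks crest and muscle precursors, had 32.5 to 43.9 in the WT mandibular branch, far below the 154 to 173 of set 1 (change -1.44, adjusted p 2.27e-07). Pax9, needed for teeth and palate, had 18.6 to 54.2 against 71.7 to 107 (change -0.82, adjusted p 0.00357). The median change of the partners was 0.04 in that comparison, -0.045 in the mutant and -0.09 in the KO. In the difference of the effects Pax3 was called, at 0.93 (adjusted p 0.0149), with changes of 0.40 in the Dlx5/6 mutant and -0.53 in the KO that were not called themselves. It was also called lower in the Dlx5/6 mutant mandibular branch than in WT maxillary set 1, at -1.04 (adjusted p 0.000108).

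Genes known as targets of Six-Eya complexes, or known to need them, moved in both directions. Of 14 such genes, Myc rose in the Dlx5/6 mutant and Myf5 and Ccnd1 fell, 3 called genes where 3.16% of all genes were called. Myf5, a muscle determination gene, had 16.6, 22.4 and 10.99 on the mutant arrays and 46.9, 63.3 and 69.4 on the WT mandibular arrays, a change of -0.92 ± 0.16 (adjusted p 0.00113). Ccnd1, the gene of cyclin D1, had 1388, 1313 and 1238 on the mutant arrays and 1567, 1778 and 1917 on the WT arrays (change -0.42, adjusted p 0.000904). Both were lower in the arrays in which Six2, Eya1 and Dach1 were higher, and Myc was higher, at 0.58 (adjusted p 0.00548).

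In the KO, where 1.26% of all genes were called, 2 of the 14 targets were, both lower: Ccnd1 by a change of -0.31 (adjusted p 0.032) and Neurog1, a gene of sensory neuron precursors, by -0.78 (adjusted p 0.0299). In the WT mandibular branch Myf5 was higher than in the maxillary branch, at 1.12 (adjusted p 7.3e-05), and Neurog1 lower, at -1.71 (adjusted p 7.06e-07). Neurog1 was lower in the Dlx5/6 mutant mandibular branch than in set 1 as well, at -1.54 (adjusted p 1.24e-05), and the difference of the effects was called for Myf5, at -1.34 (adjusted p 0.00134). Myf5 and Neurog1 are also markers of muscle and of sensory neurons, and each is counted in its marker list as well. In the difference of the effects 2 of 7 muscle genes were called, both lower, and in the Dlx5/6 mutant against set 1 all 10 sensory neuron genes were called lower. The median change of the targets was 0.08 in the Dlx5/6 mutant, 0.16 in the KO and 0.00 between the wild-type branches.

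**Figure D4:**
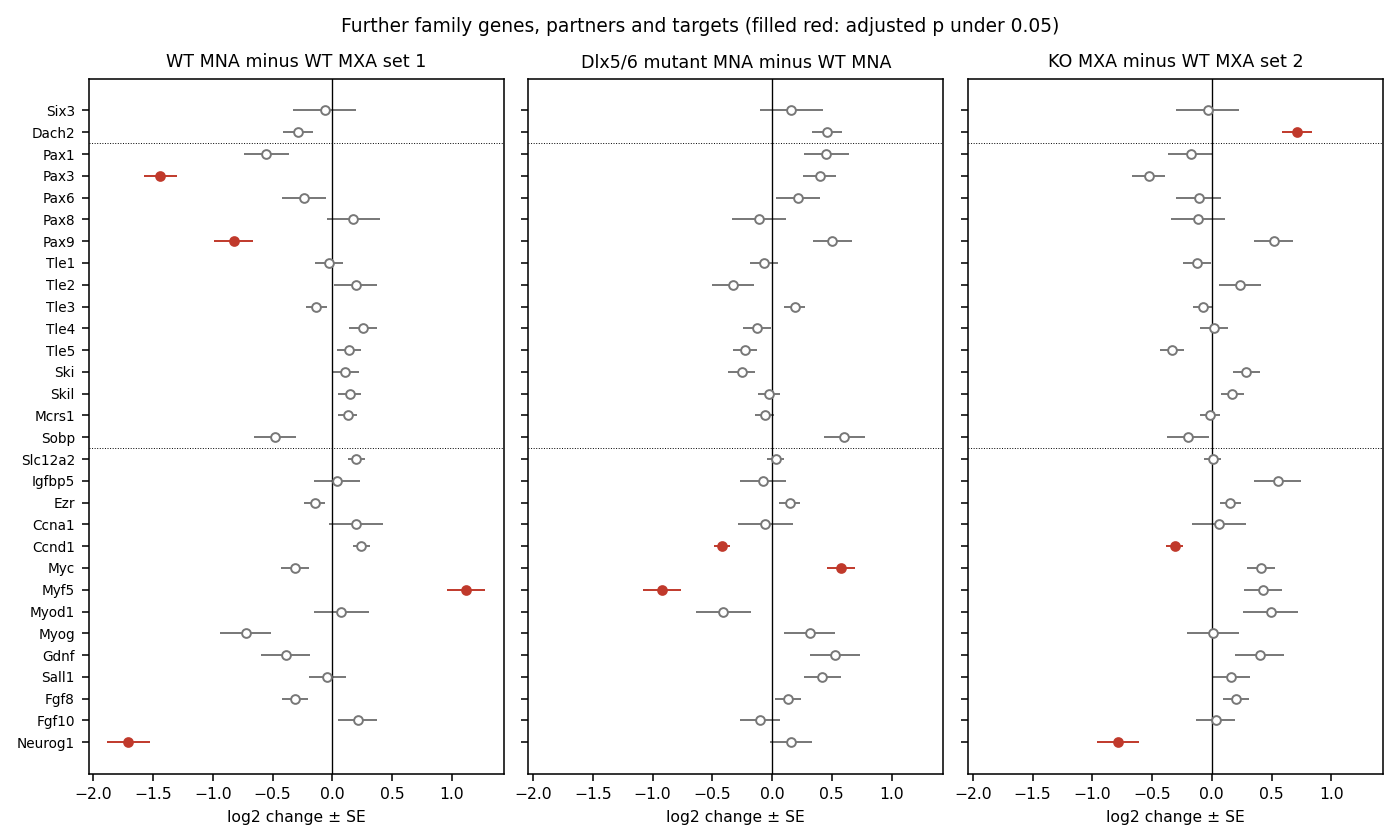
Log2 change (x axis, with SE) of the further family genes, the 14 partners and the 14 targets tested, in the WT mandibular against the WT maxillary set 1 branch, the Dlx5/6 mutant against the WT mandibular branch, and the KO against the WT maxillary set 2 branch; filled red points passed an adjusted p of 0.05, and dotted lines part the 3 lists. Myf5 is the highest point of the first panel and the lowest of the second, and Dach2 the only called point right of 0 in the third.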

How the data were processed

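The authors deposited 1 linear intensity per probe set and array, already scaled: the mean with 2% trimmed at each end was 150 on every array. The sources used here do not give the scanner software or the summary method. All 15 value columns were mapped to a sample. Values were taken as log2(intensity + 32). The array medians then ranged by 0.159, above the limit of 0.1 set for this, so arrays were quantile normalized. Probe sets had to exceed the 40th percentile of an array on 3 or more arrays to be kept (31643, after leaving out 64 controls). One limma model (limma 3.58.1, R 4.3.3) with a mean per group, 10 residual degrees of freedom and an intensity trend was fitted over all of them, with two-sided p values adjusted by Benjamini and Hochberg. The procedure was tested on simulated data. The number of arrays limits the precision: the median SE of a change was 0.148.

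Of the probe sets, 34958 had 1 gene symbol, 932 had several and 9211 were not in the probe table. A gene was counted by its brightest kept probe set, with preference for those not ending in _x_at or _s_at. All members were named; of the lists, called genes, at most 4 per comparison, and of the likest genes 3 per called member. The members and lists were chosen with earlier results of these data known. Residuals of arrays with the same replicate number correlated between -0.10 and 0.09 over 30 pairs, and the numbers were taken as names, not as pairs. Other scalings, pseudocounts, filters, variance models, thresholds, samples and controls were tried; single probe sets against the other wild-type maxillary set, and set 2 against set 1, were added after seeing the data.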

Additional observations from a re-analysis of the deposited data

Results flagged for a closer look

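The effects of the 2 mutants differed for 1 member by a test of the difference itself. For Dach1 (1433743_at) the Dlx5/6 effect minus the KO effect was 0.93 ± 0.21 on the log2 scale, with an adjusted p of 0.0228 from limma. Its signal was 172 ± 28.1 in the Dlx5/6 mutant mandibular and 94.6 ± 28.3 in the WT mandibular branch, and 254 ± 37.7 in the KO and 301 ± 54.9 in WT maxillary set 2 (SD, n = 3 each). All 3 Dlx5/6 mutant arrays lay above all WT mandibular arrays, while the KO and set 2 arrays overlapped. At the dim probe set 1420694_a_at all KO arrays lay below all set 2 arrays, with a change of -0.42 that was not called. The mandibular and maxillary pairs were in different array sets by their spike-in controls, so the branch, the mutation and the array set cannot be told apart in this difference. The call was lost in 6 of 12 fits that left out 1 array, and its adjusted p ran from 0.00516 to 0.115 over 21 alternatives. With set 1 in the place of set 2, a control of the other spike-in level added after seeing the data, the difference was 0.47 and was not called (adjusted p 0.199), while the other 2 Dach1 probe sets were called, at 0.77 and 0.87.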

How the results depend on the processing

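Of 1524 values of single probe sets under other planned settings, 1447 kept their direction and side of the threshold or were uncalled on both sides, 76 lost a call, 1 gained one and 0 reversed a call; 59 uncalled values changed sign. In the Dlx5/6 mutant Six2 and Eya1 were called under 15 of 15 alternatives and Dach1 under 13. The number of members called was 3, and 2 to 3 with 1 array left out. In the KO 2 were called, and 1 (Six4) without normalization, with a common median, without the filter, without the intensity trend and at a threshold of 0.01, 1 to 2 with 1 array left out, and 4 against set 1. In the WT mandibular branch 4 were called, and 3 to 4 with 1 array left out. There 3 were called, without Six4, with a common median, without the intensity trend, with only the groups compared and at 0.01. Against set 2 the count was 5. Between the Dlx5/6 mutant and set 1 the count was 0, also with any 1 array left out, and 2 against set 2. For the difference of the effects it was 1, and 0 without the filter, without the trend and at 0.01, 0 to 1 with 1 array left out, and 3 with set 1. The causes were not tested.

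Probe sets called over the whole array numbered 841 in the Dlx5/6 mutant (452 without trend, 394 at 0.01, 499 to 653 with 1 array left out, lowest without mutant replicate 2 and 520 without replicate 3), 289 in the KO (172, 152 and 175 to 222; 3310 against set 1), 835 in the WT mandibular branch (530 at 0.01, 607 to 691; 3318 against set 2), 188 between the Dlx5/6 mutant and set 1 (125, 107 and 119 to 142; 3536 against set 2) and 346 for the difference (219, 194 and 261 to 309; 2246 with set 1). Against set 2 in place of set 1, Eya3 turned from uncalled below 0 to called above it: 0.67 (1425989_a_at) and 0.48 (1435443_at) in the WT mandibular branch and 0.48 (1435443_at) in the Dlx5/6 mutant. With the replicate number as a block the member counts were 3, 2, 4, 0 and 1, the probe sets called 779, 260, 787, 177 and 333, and no member call changed.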
